A study of Mus musculus with 2 samples.

Results

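The cytosolic ribosomal protein genes encode the proteins of the large and small ribosomal subunits. They were taken here as all genes on the arrays whose mouse symbol begins with Rpl or Rps and a digit, together with Rpsa, Rplp0, Rplp1, Rplp2 and Fau, without the Rps6k kinases, Rps19bp1 and symbols that mark a pseudogene. This rule found 89 genes of the 22911 named genes on the arrays, 54 of the large subunit and 35 of the small subunit, with 152 probes. RNA came from regulatory T cells (Tregs) of the kidney, sorted as CD45+CD3e+CD4+FoxP3-hCD2+ cells, where the FoxP3-hCD2 reporter marks cells that express Foxp3. The cells were taken on day 28 of cGN, a kidney injury for which 2 lots of anti-GBM antibody were used because disease severity varied between lots. In the scanner output array 2 is recorded under lot M and array 1 under lot I, with 1 array per lot, and no arrays of untreated animals were used here. The labels name no strain, age or number of mice per array.

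The deposited value table assigns the arrays to the lots the other way round, so the arrays are named by number. Its values matched the signals of array 2 under the label of array 1 (SD of the log2 ratio 0.000474 over 13802 probes) and those of array 1 under the label of array 2 (SD 0.000587 over 13919 probes). Against the column of the same label the SD was 0.181 for array 2 and 0.156 for array 1. A level is the log2 of a probe's signal over the 75th percentile of its array, and a difference is array 2 minus array 1. The error beside a difference is the scanner software's error for the spots, which does not hold the variation between mice or lots. The submitters' titles number the arrays as replicates of one condition, so a difference is also the spread between those replicates. With 1 array per lot it has no further replicate check and no test. Probes differ in how well they bind, so levels of different genes do not rank their transcripts.

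Each ribosome holds a single copy of nearly every ribosomal protein, so cells make these proteins in balanced amounts and degrade the excess. Their mRNAs belong to the TOP class (terminal oligopyrimidine), whose first bases are a C and a run of pyrimidines through which mTORC1 controls their translation. T cells that divide build many ribosomes, and a few ribosomal proteins have a second gene copy that is used mainly in testis or muscle.

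The starts of some of these genes are shown because a pyrimidine run at the start defines the TOP class. The start bases are those annotated by RefSeq, and whether transcription begins there in these cells was not measured. RefSeq promoter windows (build GRCm38.p6) were matched by symbol for 68 of the 89 genes. A run was counted where a C from 10 bases before to 10 bases after the annotated start was followed by at least 5 pyrimidines on the gene's strand. Of the 68 genes, 37 (54.4%) held such a run, against 5702 of all 27025 genes in the table (21.1%). With the C at the start base itself the counts were 13 (19.1%) and 553 (2.05%). The run was found in 16 of 26 small subunit genes (61.5%) and in 21 of 42 large subunit genes. In the 6 examples below, 60 bases before the start and 20 bases from it are printed from 5′ to 3′, with the run in capitals.

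Rps6 (chr4:86857348-86857427, minus strand): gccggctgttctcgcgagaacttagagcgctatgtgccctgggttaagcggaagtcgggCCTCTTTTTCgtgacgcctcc
Rps18 (chr17:33955646-33955725, minus strand): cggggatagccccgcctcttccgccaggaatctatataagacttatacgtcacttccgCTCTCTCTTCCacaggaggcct
Fau (chr19:6057887-6057966, plus strand): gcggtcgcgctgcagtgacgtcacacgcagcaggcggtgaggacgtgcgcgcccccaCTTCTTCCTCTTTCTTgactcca
Rplp2 (chr7:141447591-141447670, plus strand): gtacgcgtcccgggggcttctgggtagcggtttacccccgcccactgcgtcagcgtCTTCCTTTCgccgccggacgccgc
Rpl15 (chr14:18270967-18271046, minus strand): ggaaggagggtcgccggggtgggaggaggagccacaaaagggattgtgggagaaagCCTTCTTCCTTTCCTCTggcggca
Rpl38 (chr11:114668520-114668599, plus strand): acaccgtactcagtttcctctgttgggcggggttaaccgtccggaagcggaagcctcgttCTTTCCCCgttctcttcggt

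The 37 genes with the run, all measured, had a median difference of 0.030 between the arrays, with 30 higher in array 2. The 29 measured genes without it had a median of 0.019, with 20 higher in array 2. Of all measured genes 53.8% were higher in array 2, and of genes with a mean level above 5 it was 68.9%. Such counts depend on the scaling. With scaling by the spike-in controls, 8 of all 87 measured ribosomal protein genes were higher in array 2, against 36.7% of all measured genes. Both medians are below the scanner error of a single gene, and the error of a median over genes was not computed. The core of the ETS family motif (CCGGAAG, either strand, anywhere in the 300-base window) was present in 26 of the 68 genes (38.2%) and in 9.93% of all genes. The GC box (GGGCGG) was present in 41 (60.3%) and 38.2%, the core of the YY1 motif (AAGATGGC) in 7 (10.3%) and 3.19%, and the TATA box (TATAAA) in 8 (11.8%) and 15.7%, all on either strand. A match describes the letters of the window and not a bound site.

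Nearly all ribosomal protein genes were detected with bright probes. Of the 89 genes, 87 were well above background on both arrays by at least 1 probe, and 147 of their 152 probes were. Levels ran from -4.14 to 10.01 on array 2 and from -3.46 to 9.95 on array 1, with medians of 8.25 and 8.21. On both arrays 82 members had a level above 5, a level that 5.86% of all 13743 measured genes passed on array 2 and 5.65% on array 1. The members made up 0.633% of the measured genes and carried 19.6% of the summed gene signal on each array. Levels of the 87 genes on the 2 arrays had a Pearson's r of 0.998 across genes, which share the arrays and are not replicates. In bulk RNA, fewer cells of a type and less RNA per cell cannot be told apart.

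Between the arrays the ribosomal protein genes differed by very little. Their median difference was 0.027 (1.02-fold), and 82 of 87 lay within 0.1 of 0, against 48.6% of all measured genes. Array 2 was higher for 65 members and lower for 22, where 53.8% of all measured genes were higher in array 2. The split and the sign of the median rest on the scaling. Scaling by the spike-in controls, whose median difference was 0.061, gave a median of -0.034 with 8 members higher and 79 lower. All measured genes then had a median of -0.048, with 36.7% higher in array 2. Quantile normalisation gave 37 members higher and 43 lower, where 50.9% of all measured genes were higher. A difference of 1.5-fold or more was found for 2 members (Rpl39l and Rpl37), against 5.97% of all measured genes. Rpl37 did not reach it with normexp background correction (-0.21), and 1 member was left with normexp or with a stricter filter on dim signals. A difference of 0.32 or more on the log2 scale was found for 3 (Rpl39l, Rpl37 and Rps4l), against 14.7%, and one of 2-fold or more for 0 members, against 1.43%. All 3 had levels under 5. Their own error was exceeded by 5 members, namely these 3, Rpl36 and Rps27, where 28.6% of all measured genes exceeded theirs. Among the 82 members with a mean level above 5, differences lay between -0.078 and 0.12, none reached 0.32 and 63 were higher in array 2. Of all 788 genes above that level, 77.3% lay within 0.1 of 0, where 81 of the 82 members did. Of the 788 genes, 1.78% reached 0.32 and 68.9% were higher in array 2. The SD of the differences was 0.033 over the 82 bright members and 0.111 over the other 706 bright genes. These groups are not matched in brightness. Median levels were 8.26 on array 2 and 8.23 on array 1 over the 82 members. Over the 706 genes they were 5.84 on array 2 and 5.83 on array 1. How brightness and the number of spots bear on this spread was not tested.

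**Figure D1:**
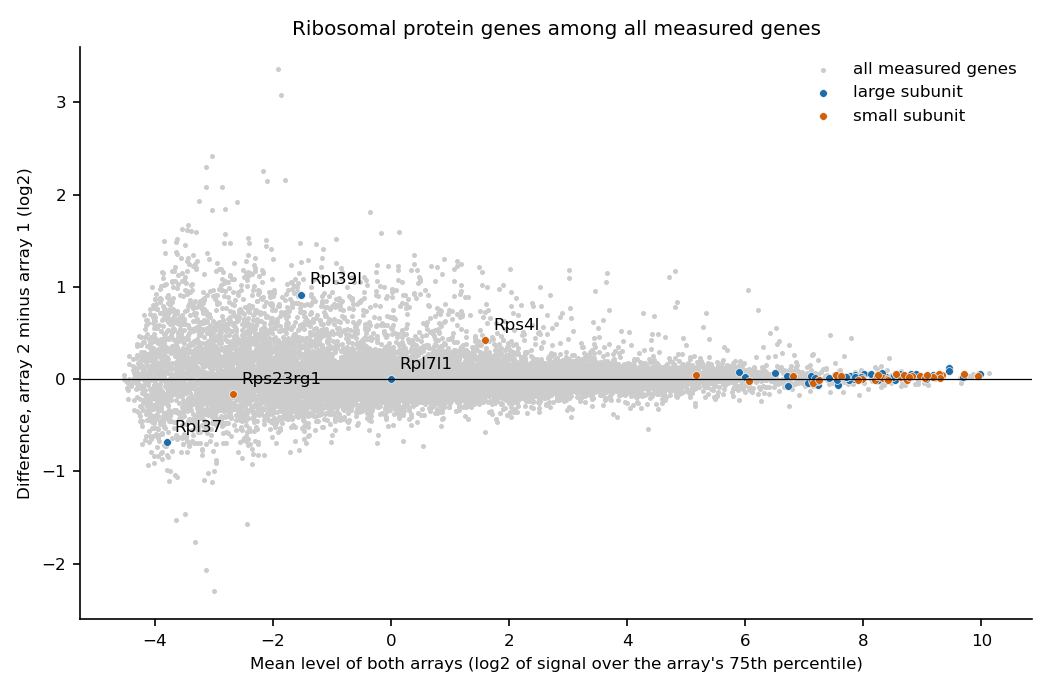
Difference between the arrays (array 2 minus array 1, log2) against the mean level of both arrays (log2 of signal over the 75th percentile) for all 13743 measured genes in grey, large subunit genes in blue and small subunit genes in orange. The 82 members above a level of 5 lie between -0.078 and 0.12, and Rpl39l, Rps4l and Rpl37 lie farther from 0 at low levels.

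The medians of the large and the small subunit lay close together. The 52 measured genes of the large subunit had a median difference of 0.026, with 38 higher and 14 lower in array 2. The 35 genes of the small subunit had a median of 0.028, with 27 higher and 8 lower. Of all measured genes 53.8% were higher in array 2, and of genes with a mean level above 5 it was 68.9%. The subunit counts rest on the scaling too. Median levels were 7.93 on array 2 and 7.91 on array 1 for the large subunit, and 8.41 on each array for the small subunit. Without the second copies and the retrogene, the medians of the differences were 0.024 over 46 large subunit genes and 0.027 over 32 small subunit genes. The 32 small subunit genes lay between -0.043 and 0.059, all within 0.1 of 0. Of the 46 large subunit genes, 45 did, with Rpl37 outside.

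**Figure D2:**
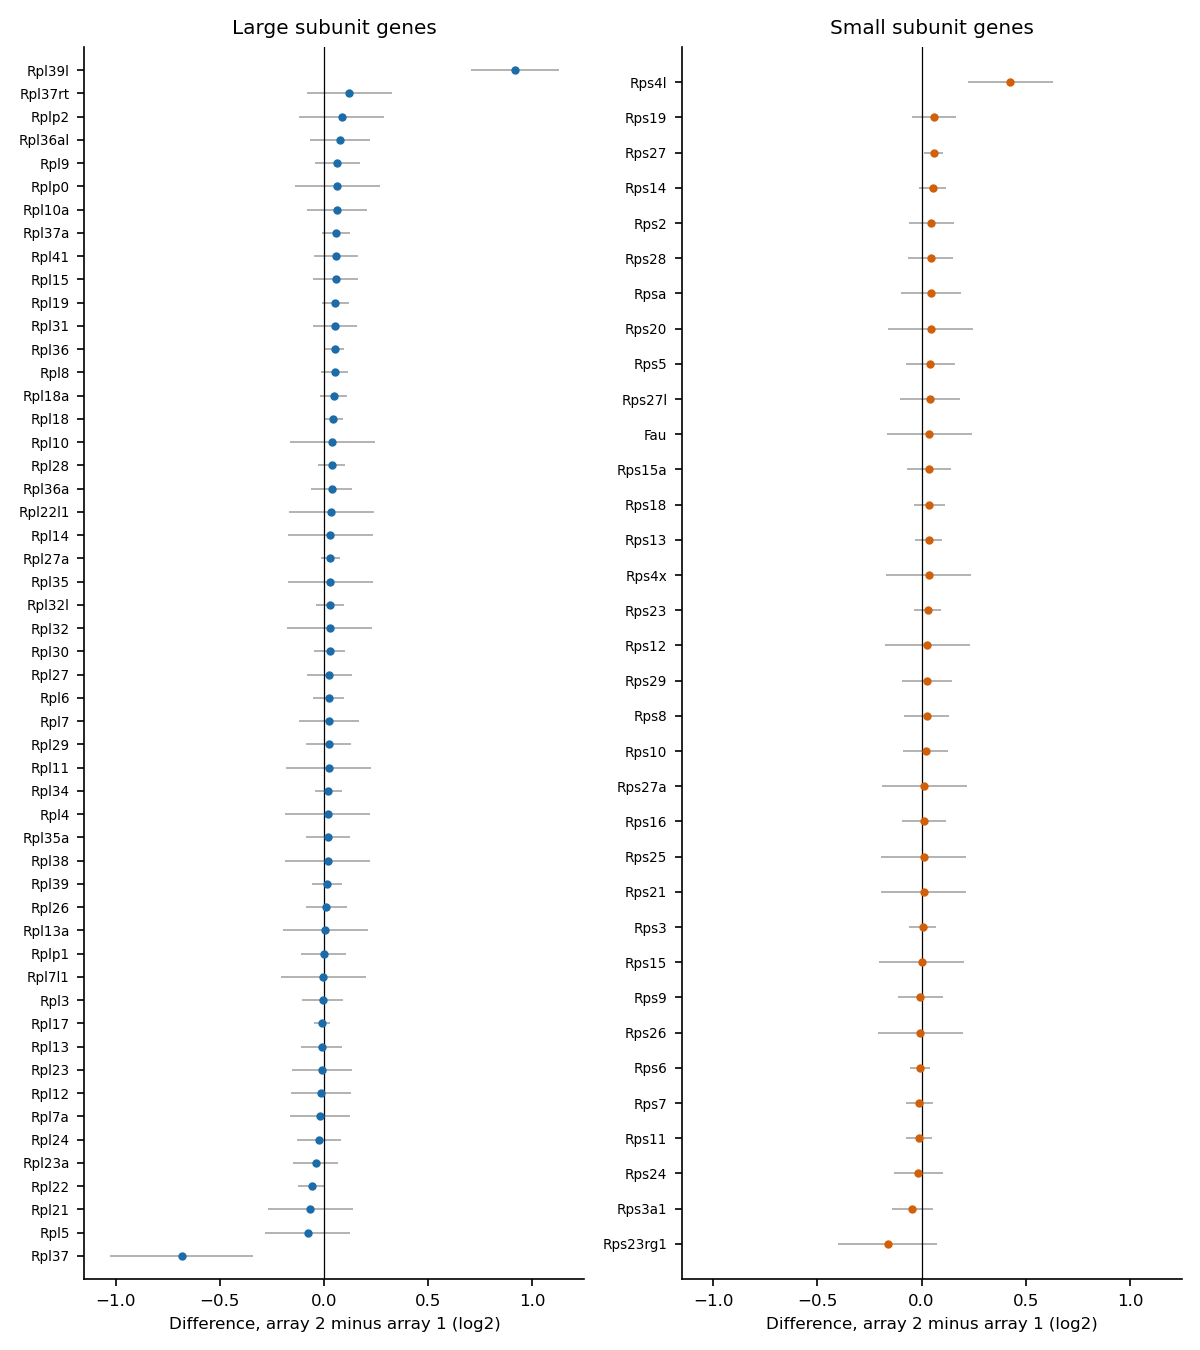
Difference between the arrays (array 2 minus array 1, log2) of the measured large and small subunit genes, sorted by difference, with bars for the scanner error and without 1 gene that is not reported here. Most points lie within their own error of 0. Rpl39l (0.92), Rps4l (0.43) and Rpl37 (-0.68) lie far outside, and Rpl36 (0.052) and Rps27 (0.058) lie just outside.

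The RNAs for proteins of the stalk, the arm of the large subunit that recruits elongation factors, were close on both arrays. Rplp0, the base of the stalk, had levels of 8.34 in array 2 against 8.28 in array 1 (difference 0.065 ± 0.20). Rplp1 had 9.06 in array 2 against 9.06 in array 1 (difference -0.0012 ± 0.11). Rplp2 had 9.50 in array 2 against 9.41 in array 1 (difference 0.084 ± 0.20). All 3 differences were smaller than their errors.

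Members made as ubiquitin or ubiquitin-like fusions were measured with bright probes. Fau, a ubiquitin-like protein fused to a small subunit protein, had levels of 9.96 in array 2 against 9.93 in array 1 (difference 0.037 ± 0.20). Rps27a, a fusion of ubiquitin and a small subunit protein, had 9.30 in array 2 against 9.29 in array 1 (difference 0.013 ± 0.20). A further probe named for Rps27a was below the detection limit in both arrays.

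Rpl5 and Rpl11 join the ribosome together with its smallest RNA and bind Mdm2 when ribosome assembly fails, which stabilises p53. Rpl5 had levels of 6.69 in array 2 against 6.77 in array 1 (difference -0.078 ± 0.20). Rpl11 had 9.70 in array 2 against 9.68 in array 1 (difference 0.022 ± 0.20). Neither difference exceeded its error.

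Several small subunit genes are known from growth control and human disease. Rps6, the substrate of S6 kinase, had levels of 7.91 in array 2 against 7.92 in array 1 (difference -0.0063 ± 0.049). Rps19, which is mutated in human Diamond-Blackfan anaemia, had 8.59 in array 2 against 8.53 in array 1 (difference 0.059 ± 0.11). Rps26, mutated in the same disease, had 8.74 in array 2 against 8.75 in array 1 (difference -0.0057 ± 0.20). Rps14, whose loss underlies a human myelodysplastic syndrome, had 9.74 in array 2 against 9.68 in array 1 (difference 0.053 ± 0.065). Rps3, a protein of the mRNA entry channel, had 8.40 in array 2 against 8.40 in array 1 (difference 0.0048 ± 0.065). Rpsa, also described as a laminin receptor, had 9.09 in array 2 against 9.05 in array 1 (difference 0.044 ± 0.14). Each of these differences was smaller than its error.

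In the large subunit, Rpl10, which joins late in assembly, had levels of 9.32 in array 2 against 9.27 in array 1 (difference 0.041 ± 0.20). Rpl13a, which in human monocytes also silences translation of inflammatory mRNAs, had 7.84 in array 2 against 7.83 in array 1 (difference 0.0057 ± 0.20). Rpl38, known in mice for the translation of Hox mRNAs, had 9.29 in array 2 against 9.27 in array 1 (difference 0.019 ± 0.20). The members with the lowest differences above a level of 5 were Rpl5, Rpl21 and Rpl22. Rpl21 had 7.19 in array 2 against 7.26 in array 1 (difference -0.067 ± 0.20). Rpl22, which developing T cells of the mouse need, had 7.55 in array 2 against 7.61 in array 1 (difference -0.058 ± 0.065).

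Repeated spots gave 48 of the members a finer measure than most genes have. Of the 300 probes printed 10 times on each array, 60 belonged to 48 ribosomal protein genes. The SD between spots of a probe had a median of 0.033 on array 2 and 0.033 on array 1, with a largest value of 0.080 on array 2 and 0.069 on array 1. Differences of the 60 probes lay between -0.058 and 0.074 with a median of 0.027, and 44 were higher in array 2, where 72.7% of the 289 such probes measured on both arrays were. The spots of array 2 and array 1 did not overlap for 2 of the 60 probes, 1 of Rpl36 and 1 of Rps2, against 6.57% of the 289. The Rpl36 probe had levels of 8.72 on array 2 (10 spots, 8.69 to 8.75) and 8.66 on array 1 (10 spots, 8.63 to 8.68). Each count of spots leaves out outliers. The Rps2 probe had 7.33 on array 2 (8 spots, 7.30 to 7.35) and 7.26 on array 1 (8 spots, 7.23 to 7.27). Differences exceeded 2 standard errors of the spots for 29 of the 60 probes, 27 of them higher in array 2. Of the 289 probes, 47.8% exceeded 2 standard errors and 41.9% did so with array 2 higher, so the members' counts lay near those of the array. Spots of a probe share 1 labelled RNA per array, so they are not replicates of a lot, and the 8 spike-in controls differed by 0.030 to 0.087 on the same scale.

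**Figure D3:**
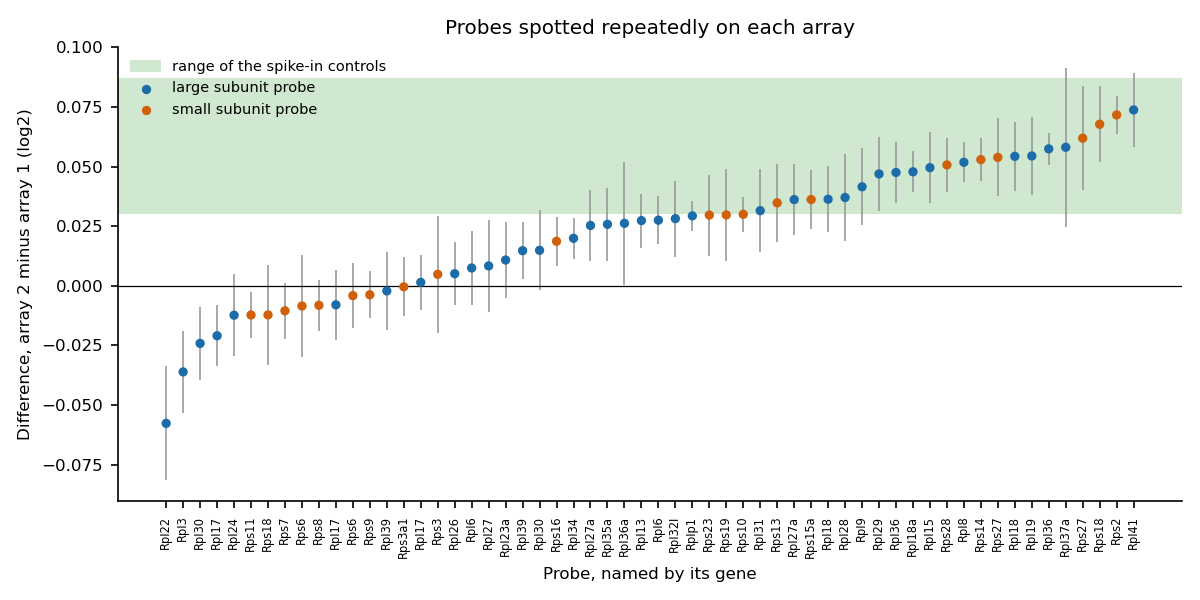
Difference between the arrays (array 2 minus array 1, log2) of the probes with repeated spots, named by gene and sorted, with bars for the standard error over spots and without the probes of 1 gene that is not reported here. All lie between -0.058 and 0.074, and the green band marks the range of the 8 spike-in controls, 0.030 to 0.087.

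Different probes of a gene gave differences close to each other and levels far apart. Of 45 members with several measured probes, 16 had probes of opposite sign, while the spread of the difference within a gene had a median of 0.035 and a largest value of 0.14. Levels of probes of the same gene spread by up to 5.62 on array 2 and 5.69 on array 1, with medians of 0.88 and 0.86. Rpl30 had the largest spread, with probes at 8.14, 7.35 and 2.52 on array 2 and at 8.13, 7.38 and 2.43 on array 1. Rps24 had probes at 9.02, 4.98 and 4.16 on array 2 and at 8.98, 5.06 and 4.18 on array 1, each named for a different transcript. The level of a gene here is the mean over such probes.

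Of the second gene copies, Rpl39l and Rps4l differed between the arrays by more than their error. The starts of some copies are printed beside those of 2 partner genes so that the presence of the run can be compared. Capitals mark the pyrimidine run, and Rpl10l and Rpl10 have none within the window searched.

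Rpl39l (chr16:10170168-10170247, plus strand): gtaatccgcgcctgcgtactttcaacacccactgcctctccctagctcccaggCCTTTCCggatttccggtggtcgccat
Rpl39 (chrX:37085203-37085282, minus strand): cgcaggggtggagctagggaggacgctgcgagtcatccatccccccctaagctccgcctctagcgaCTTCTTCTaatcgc
Rpl22l1 (chr3:28805448-28805527, plus strand): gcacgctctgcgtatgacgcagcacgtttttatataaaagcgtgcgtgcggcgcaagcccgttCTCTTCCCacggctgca
Rpl10l (chr12:66284382-66284461, minus strand): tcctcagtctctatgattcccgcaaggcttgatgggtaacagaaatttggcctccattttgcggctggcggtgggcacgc
Rpl10 (chrX:74270756-74270835, plus strand): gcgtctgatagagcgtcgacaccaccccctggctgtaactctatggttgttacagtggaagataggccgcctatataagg
Rpl32l (chr10:20208379-20208458, plus strand): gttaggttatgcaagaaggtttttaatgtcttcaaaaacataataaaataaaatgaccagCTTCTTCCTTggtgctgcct

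Rpl39l, used in testis in place of the X-linked Rpl39, had levels of -1.07 in array 2 against -1.98 in array 1 (difference 0.92 ± 0.21, 1.89-fold), from 1 probe. Its partner Rpl39 had 7.18 in array 2 against 7.17 in array 1 (difference 0.014 ± 0.073, 5 probes). Rps4l, a copy of Rps4x that RefSeq lists as a transcribed pseudogene, had 1.81 in array 2 against 1.38 in array 1 (difference 0.43 ± 0.20, 1.34-fold, 1 probe). Rps4x, its X-linked partner, had 7.64 in array 2 against 7.60 in array 1 (difference 0.034 ± 0.20). Both copies were higher on array 2 by more than the spot error, and both partners were not.

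Markers of other cell types, listed with earlier results of these data known, differed between the arrays as well. Among all measured genes 53.8% were higher in array 2. All 6 markers of the proximal tubule were also higher on array 2, by 1.05 to 1.59, with levels from -0.0063 to 3.62 on array 2 and from -1.06 to 2.43 on array 1. All 6 macrophage markers were higher by 0.27 to 0.46, with levels from 1.13 to 2.47 on array 2 and from 0.80 to 2.05 on array 1. The 7 Treg and T cell markers, all measured, had a median difference of 0.018, with levels from 3.20 to 5.58 on array 2 and from 3.21 to 5.47 on array 1. No defining marker of the 3 lists was below background. The RNA of Foxp3 itself, the gene behind the sort, had 4.74 in array 2 against 4.92 in array 1 (difference -0.17 ± 0.20). The part of other cells in the differences of Rpl39l and Rps4l was not tested.

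Other second copies were close on both arrays. Rpl22l1, which rises in mice that lack Rpl22, had levels of 6.72 in array 2 against 6.68 in array 1 (difference 0.035 ± 0.20). Rpl36al, the autosomal copy of the X-linked Rpl36a, had 5.94 in array 2 against 5.86 in array 1 (difference 0.076 ± 0.14), and Rpl36a had 7.13 in array 2 against 7.09 in array 1 (difference 0.037 ± 0.099). Rps27l, a p53 target in human cells, had 5.18 in array 2 against 5.14 in array 1 (difference 0.040 ± 0.14), and Rps27 had 9.30 in array 2 against 9.25 in array 1 (difference 0.058 ± 0.046). Rpl7l1, a homologue of Rpl7, had -0.0071 in array 2 against -0.0044 in array 1 (difference -0.0027 ± 0.20), against 7.72 on array 2 and 7.70 on array 1 for Rpl7. Of these differences, only that of Rps27 exceeded its error. It lay within the range of the spike-in controls, 0.030 to 0.087. With scaling by these controls, the difference of Rps27 was -0.0033.

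Of the copies of muscle and germ cells, Rpl3l and Rpl10l were not well above background in either array, while Rpl39l was in both. Rpl3l replaces Rpl3 in heart and skeletal muscle, and Rpl10l replaces the X-linked Rpl10 in mouse spermatogenesis. Rpl3l and Rpl10l had 1 probe each. Rpl3 had levels of 7.55 in array 2 against 7.56 in array 1 (difference -0.0050 ± 0.099), and the values of Rpl10 are given above. The lowest signal called well above background was -4.58 on array 2 and -4.62 on array 1.

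Retroposed copies arise from the mRNA of their source gene and can be close to it in sequence. Probe sequences were not used here, so how far a bright probe tells copy and source apart was not tested. The probe named for Rpl37 was close to the detection floor, with a level of -4.14 in array 2 against -3.46 in array 1 (difference -0.68 ± 0.34, 0.62-fold). The probe named for Rpl37rt, its retroposed copy, had 9.51 in array 2 against 9.39 in array 1 (difference 0.12 ± 0.20). Rpl32l had 7.996 in array 2 against 7.97 in array 1 (difference 0.028 ± 0.068), beside 8.51 on array 2 and 8.48 on array 1 for Rpl32. Rps23rg1, a retrogene of Rps23, had -2.76 in array 2 against -2.59 in array 1 (difference -0.16 ± 0.24) by 1 of its 2 probes, while the other probe was above background on array 1 only. Its source Rps23 had 8.84 in array 2 against 8.81 in array 1 (difference 0.030 ± 0.065).

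**Figure D4:**
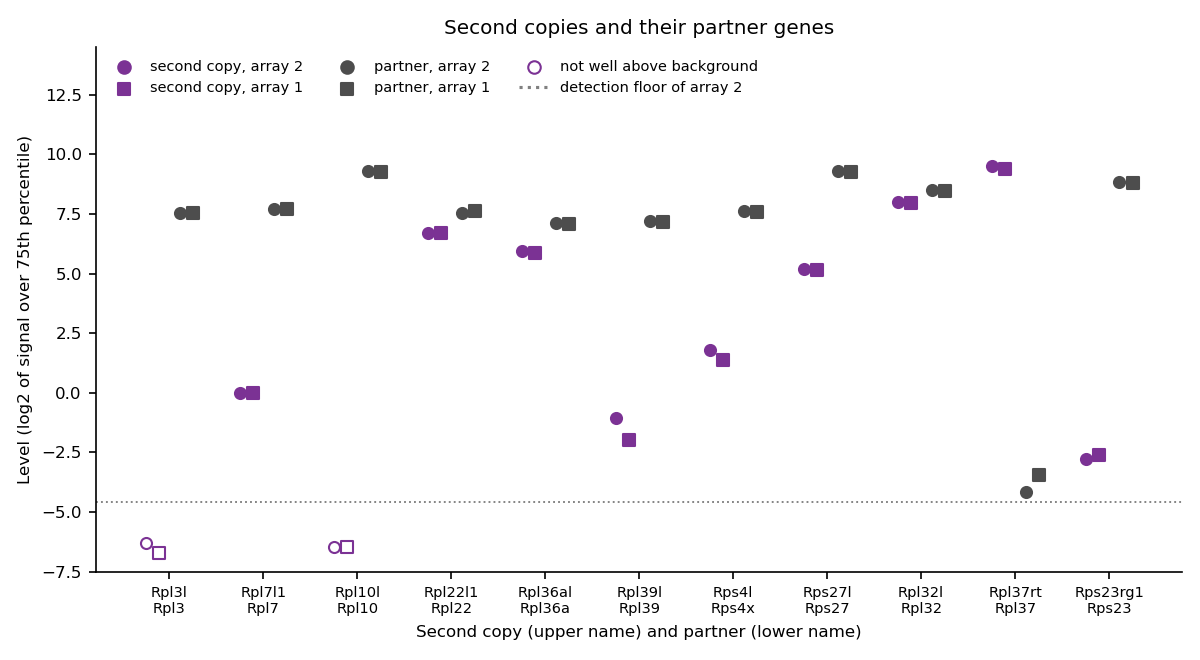
Levels (log2 of signal over the 75th percentile) of second copies in purple and their partner genes in dark grey, with circles for array 2 and squares for array 1. Rpl39l and Rps4l lie higher on array 2, the open symbols of Rpl3l and Rpl10l lie below the dotted detection floor, and heights of different genes cannot be compared because their probes differ.

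Genes that work beside the ribosome differed between the arrays by small amounts. Of 109 measured genes of 7 lists, 16 exceeded their own error in either direction (14.7%), against 28.6% of all measured genes. Of these, 9 were among the 30 measured genes of ribosome assembly, a share near the 28.6% of all measured genes. None of the 7 lists held a gene that differed by 0.32 or more on the log2 scale, where 14.7% of all genes did. Of genes with a mean level above 5, 1.78% did. The lists were not matched to all genes in brightness. Their median levels on array 2 ran from 0.41 (p53 checkpoint) to 6.82 (other TOP-class genes), against 0.49 for all measured genes. For the counts by direction, 53.8% of all measured genes and 68.9% of genes with a mean level above 5 were higher in array 2. The 28 initiation factors had a median difference of 0.021, with 20 higher in array 2 and a range from -0.21 (Eif2s3x) to 0.12 (Eif3d). The 9 elongation and termination factors had a median of -0.016, with 3 higher and 6 lower. Among them Eef1a1, which delivers aminoacyl-tRNA, had levels of 7.02 on array 2 and 7.03 on array 1, and Etf1, the release factor, differed by -0.18 ± 0.20. Of 9 other TOP-class or ribosome-bound genes, 3 were higher, with a median of -0.012. Rack1, a scaffold on the small subunit, had 8.50 in array 2 against 8.45 in array 1 (difference 0.042 ± 0.11), and Npm1, a nucleolar chaperone also counted under ribosome assembly, had 4.76 in array 2 against 4.91 in array 1 (difference -0.15 ± 0.099).

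Of 30 genes of ribosome assembly, 18 were higher in array 2 and 12 lower, with a median of 0.037. Among all measured genes 53.8% were higher in array 2. Grwd1, the chaperone of Rpl3, had levels of 0.086 in array 2 against -0.21 in array 1 (difference 0.29 ± 0.15), the widest difference of the 7 lists. The 12 measured of 13 genes of RNA polymerase I, which makes ribosomal RNA, had a median of 0.020. The 14 genes of mTORC1, S6 kinase and control of TOP mRNAs had a median of -0.015, with 7 in each direction. Larp1, which binds the pyrimidine run, had 4.19 in array 2 against 4.16 in array 1 (difference 0.036 ± 0.14), and Rheb, the activator of mTORC1, differed by -0.26 ± 0.20. The 8 genes of the p53 checkpoint had a median of -0.032. Mdm4, an inhibitor of p53, had 0.29 in array 2 against 0.49 in array 1 (difference -0.21 ± 0.10), and Ccng1, a p53 target, had 2.72 in array 2 against 2.90 in array 1 (difference -0.18 ± 0.20). With scaling by the spike-in controls, positive differences below 0.061 turn negative.

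**Figure D5:**
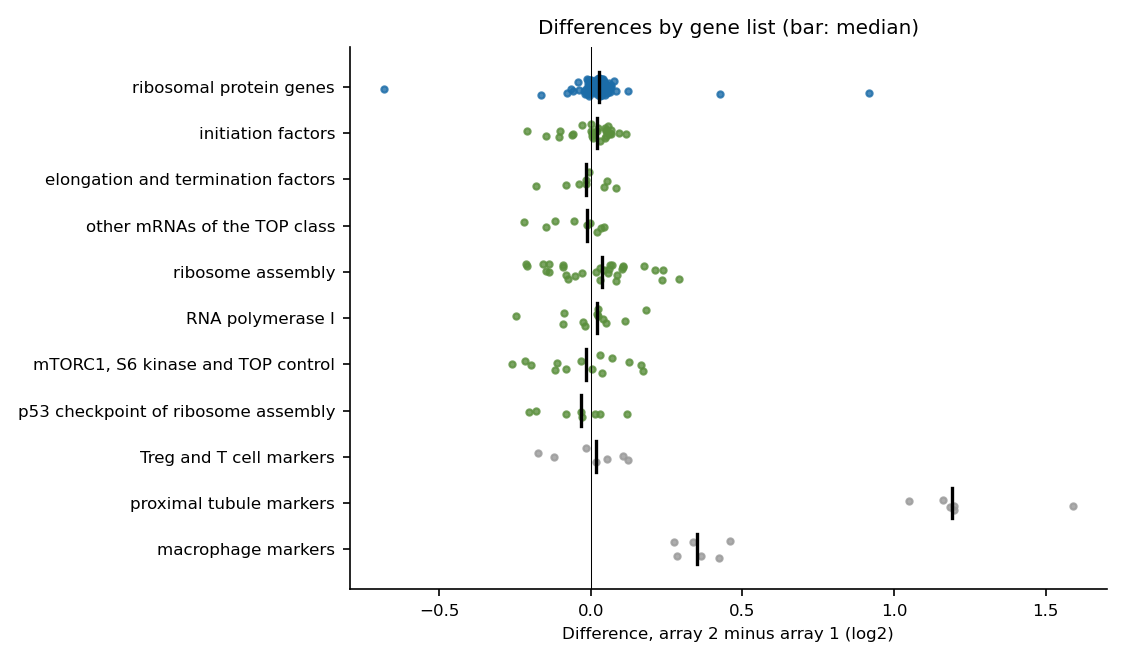
Differences between the arrays (array 2 minus array 1, log2) of the 87 measured ribosomal protein genes in blue, 7 lists of genes of translation and ribosome assembly in green and 3 lists of cell type markers in grey, with bars at the medians. The proximal tubule markers lie between 1.05 and 1.59, and the medians of the translation lists lie between -0.032 and 0.037.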

How the data were processed

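Cy3-labelled total RNA was measured on single-colour Agilent arrays, 1 array per antibody lot. The deposited scanner files were made with Agilent Feature Extraction 10.7.1.1, per the submitters' processing notes. Their processed signal intensity is, per the file headers, corrected for background and detrended within an array, with no scaling between arrays. The same deposited files hold raw median intensities and other columns of flags for outliers, saturation and detection. The deposited value table holds a linear ratio per probe, which the comparison with the scanner signals showed to be the processed signal over a constant of the array. Its column medians were 0.069 under the label of array 2 and 0.070 under that of array 1. No source used here says how the authors computed it.

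Control spots (3671 of 62976 per array) were dropped, as were outlier spots, 56 in array 2 and 75 in array 1. No spot was saturated. Log2 signals were set against the array's 75th percentile, and spots of a probe were averaged. RefSeq accessions named 32994 of 56605 probes with 1 symbol through a table of GRCm38.p6, which served for names and promoter windows, while the array headers name mm9. A gene's value averages its probes that were well above background in both arrays, as 54.0% of probes were in each. The number of arrays limits the precision. Calculations used numpy 2.4.6 and pandas 2.3.3 and were tested on simulated data.

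Members and lists were chosen with earlier results of these data known. By rule, full values went to the 5 highest and 5 lowest differences, second copies and their partners, members past 1.5-fold or below background, a set chosen by role, and up to 3 genes of each further list. Rps4l falls under second copies. Rack1, Eef1a1, Larp1, the probe examples (Rpl30, Rps24, Rpl36, Rps2) and the genes with printed promoters were picked after their values were seen. Some items of these lists are not reported here. The alternatives were normexp (offset 50), 3 other scalings (median of genes, spike-ins, quantile), the brightest probe, outlier spots retained, weaker and stronger limits on dim probes, another detection flag, other member sets and the value table. The limit at a mean level above 5 was chosen after seeing the data.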

Additional observations from a re-analysis of the deposited data

How the results depend on the processing

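The median difference of the ribosomal protein genes was 0.027 and lay between -0.034 and 0.029 under the alternatives, so its sign depends on the scaling. Of the recomputed values, 276 stayed within their error or within 1.5 times a count, 17 moved and 2 reversed. A value that stayed within its error could still change sign. With spike-in scaling, for example, the median was -0.035 for the large subunit and -0.034 for the small subunit. The number higher in array 2, 65, became 8 with spike-in scaling and 37 with quantile normalisation. It became 21 with the value table taken by its labels, whose columns are exchanged. Of all measured genes 53.8% were higher in the main setting and 36.7% with spike-in scaling. The shares were 50.9% with quantile normalisation and 45.6% with the value table. The number at 1.5-fold or more, 2, became 1 with normexp, 1 when dim probes were filtered more strictly, and 0 among members with a mean level above 5, where 0 also passed 0.32 on the log2 scale. With normexp, Rpl39l differed by 0.62 and Rpl37 by -0.21. Rps23rg1 differed by -0.48 with no filter on dim probes, and Rps27 by -0.0033 with spike-in scaling. Except for the value table, the cause of these shifts was not tested. With the value table by its labels, Rpl39l reversed to -0.92 and Rpl37 to 0.67, and Rps4l became -0.43, Rpl22 0.056, Rpl36al -0.077, Rpl37rt -0.12, Rps23rg1 0.17 and Rps27 -0.060, which is the exchange of columns. Members measured in both arrays numbered 87, against 88 with the other detection flag and 84 when every probe had to pass. The differences of Rpl39l, Rpl37 and Rps23rg1 rest on 1 dim probe each. With the stricter filter on dim probes Rpl39l stayed at 0.92, while Rpl37 and Rps23rg1 dropped out. No paired analysis was possible because each lot has 1 array.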
